A study of Homo sapiens with 17 samples.

Results

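The insulin-like growth factor (IGF) family was followed here through 10 genes, taken by symbol from a total of 62754 gene rows in each count table: the ligands IGF1 and IGF2, their receptor IGF1R, and the binding proteins IGFBP1 to IGFBP7. IGF1 and IGF2 are secreted peptides that bind the receptor tyrosine kinase IGF1R, which acts through insulin receptor substrate adaptors on the PI3K-AKT and RAS-MAPK pathways. The IGF-binding proteins are secreted too. IGFBP1 to IGFBP6 hold the ligands with high affinity and can either withhold them from the receptor or deliver them, while IGFBP7 binds IGFs weakly. Several of these proteins are known components of the secretome of senescent fibroblasts.

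The 17 libraries are strand-specific RNA sequencing of poly(A) RNA from IMR90 ER:RAS cells, which are human lung fibroblasts infected with the retroviral vector pLNC ER:RAS-neo, in which RASG12V is fused to an oestrogen receptor domain and is switched on by 4-hydroxytamoxifen (4OHT). Cells were reverse transfected with an siRNA 1 day before induction and RNA was taken 7 days after it. The groups were DMSO with non-targeting siRNA (DMSO siNT, n = 5), 4OHT with non-targeting siRNA (4OHT siNT, n = 6) and 4OHT with siRNA against SMARCA4, a catalytic subunit of the chromatin remodeller SWI/SNF (4OHT siSMARCA4, n = 6). The 4OHT siSMARCA4 group pools 2 siRNAs, labelled siSMARCA4_2 and siSMARCA4_4, with 3 libraries each. The main tests took these libraries as replicates of a single group. All 17 libraries carry the ER:RAS construct, and no DMSO libraries with siSMARCA4 were analysed here, so knockdown was compared only under 4OHT. Each library is named by the tag in its label, such as 2-1VM, made of an siRNA number (2 or 4), a replicate number and a suffix (V or VM). What the suffix stands for is not given in the sources used here, and it is uneven between groups: DMSO siNT has 2 V and 3 VM libraries, 4OHT siNT has 6 VM libraries, and 4OHT siSMARCA4 has 3 of each. The labels do not say that replicates came from separate cultures, so p-values measure the spread between these libraries, which may be technical.

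Libraries held 39109479 to 68978119 estimated counts, with 95% intervals and detection floors covering counting error only. SMARCA4 itself averaged 198 ± 19.2 (SD, n = 5) CPM, counts scaled to 1000000 per library, in DMSO siNT, 268 ± 13.2 (n = 6) in 4OHT siNT and 88.1 ± 22.8 (n = 6) in 4OHT siSMARCA4, a knockdown of -1.61 on the log2 scale (edgeR adjusted p = 5.14e-07). Within 4OHT siSMARCA4 it was lower in the VM libraries (mean 71.9 CPM) than in the V libraries (104 CPM, edgeR adjusted p = 0.0201). All 12 fibroblast markers listed exceeded 1 CPM in each group, although their summed level moved with the groups, from 30487–38425 CPM in DMSO siNT to 21524–33154 in 4OHT siNT and 10820–20717 in 4OHT siSMARCA4. The summed level of 5 smooth muscle markers moved the same way, at 580.5–872, 437–481 and 267–332 CPM, as did that of 8 epithelial markers, led by KRT19, at 31.0–47.3, 1.14–2.64 and 0.543–1.11 CPM. Single markers did not all follow these sums: COL6A3, a fibroblast marker, averaged 2439 CPM in DMSO siNT and 4315 in 4OHT siNT, and SMTN, a smooth muscle marker, 226 and 380. The sums of 4 hepatocyte markers, led by SERPINA1 (0.174–0.420, 1.51–3.77 and 0.197–1.72 CPM), and of 6 endothelial markers, led by TEK (3.47–10.9, 10.1–14.9 and 7.79–11.4 CPM), reached their highest values in 4OHT siNT, with ranges that overlapped 4OHT siSMARCA4 in both and DMSO siNT in the endothelial sum. The sum of 7 immune markers reached at most 0.386 CPM. The part of these markers in the results for the IGF family was not tested. In bulk RNA, fewer cells of a kind and less RNA per cell cannot be told apart.

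Of the 10 genes, 9 passed the filter on low counts and IGF1 did not; IGFBP1 passed it only through the 4OHT groups, where it was high, so its calls in the counts that follow are a description. In 4OHT siNT against DMSO siNT, IGF2 and IGFBP1 rose while IGF1R, IGFBP3 and IGFBP6 fell, so 5 of 9 passed the test, beside 54.4% of all 19473 genes tested (27.0% higher, 27.4% lower). In 4OHT siSMARCA4 against 4OHT siNT, IGF2 and IGFBP1 rose further and IGFBP2, IGFBP5, IGFBP6 and IGFBP7 fell, so 6 of 9 passed, beside 24.2% of all genes (10.4% higher, 13.8% lower). In 4OHT siSMARCA4 against DMSO siNT, IGF2 and IGFBP1 were higher and IGF1R, IGFBP2, IGFBP3, IGFBP6 and IGFBP7 lower, so 7 of 9 passed, beside 55.1% (26.5% higher, 28.6% lower). Without IGFBP1 the counts are 4, 5 and 6 of 8. These comparisons share groups and are not independent of each other. IGFBP4 passed the edgeR test in none of them, with no unadjusted p under 0.05 and no call by DESeq2.

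**Figure D1:**
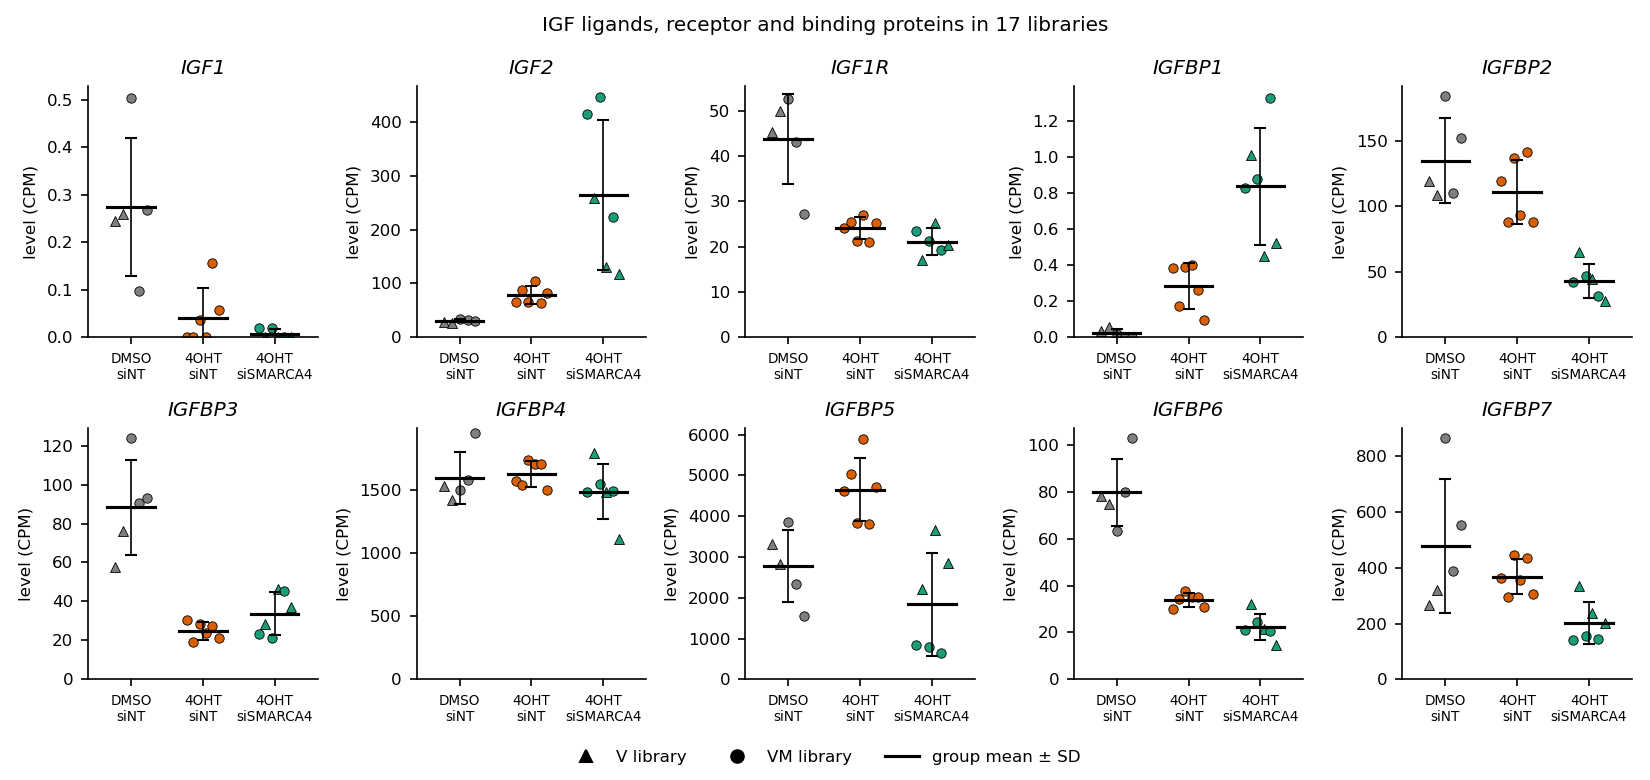
Each panel plots one gene, with CPM on the vertical axis and the 3 groups on the horizontal axis; points are libraries (5, 6 and 6), marked by suffix, and bars are mean ± SD, with error bars that would run below 0 left undrawn on that side. IGF2 climbs from 27.5–34.9 CPM in DMSO siNT to 117–446 CPM in 4OHT siSMARCA4, and IGFBP5 splits by suffix within 4OHT siSMARCA4.

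The genes lie at 8 places in the genome (GRCh38, GENCODE 44), all as protein-coding genes. IGF1 is at chr12:102395874-102481744 (minus strand), IGF2 at chr11:2129112-2158391 (minus), IGF1R at chr15:98648539-98964530 (plus), IGFBP4 at chr17:40443450-40457725 (plus), IGFBP6 at chr12:53097436-53102345 (plus) and IGFBP7 at chr4:57030773-57110385 (minus). The other binding proteins form tail-to-tail pairs: IGFBP1 (chr7:45888360-45893660, plus) ends 18.584 kb from IGFBP3 (chr7:45912245-45921874, minus), and IGFBP2 (chr2:216632828-216664436, plus) ends 7.668 kb from IGFBP5 (chr2:216672105-216695549, minus). RefSeq promoter windows, from 250 bases before to 50 bases after a start, were found for 7 of the 10 genes. The windows given here are those of IGFBP4, the binding protein that passed no test, and of IGFBP3 and IGFBP5, which moved in different comparisons, on GRCh38.p14 and written 5′ to 3′ along the gene. Capitals mark matches on either strand to a TATA box (TATANA) or a GC box (GGGCGG), motifs chosen after these windows had been seen.
IGFBP3 (chr7:45921223-45921522, minus strand): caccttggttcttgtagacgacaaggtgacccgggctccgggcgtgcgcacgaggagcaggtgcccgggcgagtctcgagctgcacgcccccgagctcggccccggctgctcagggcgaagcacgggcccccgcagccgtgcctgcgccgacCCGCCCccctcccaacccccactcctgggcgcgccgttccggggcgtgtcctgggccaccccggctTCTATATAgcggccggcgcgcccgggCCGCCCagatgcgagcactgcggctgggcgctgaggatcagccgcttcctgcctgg
IGFBP4 (chr17:40443200-40443499, plus strand): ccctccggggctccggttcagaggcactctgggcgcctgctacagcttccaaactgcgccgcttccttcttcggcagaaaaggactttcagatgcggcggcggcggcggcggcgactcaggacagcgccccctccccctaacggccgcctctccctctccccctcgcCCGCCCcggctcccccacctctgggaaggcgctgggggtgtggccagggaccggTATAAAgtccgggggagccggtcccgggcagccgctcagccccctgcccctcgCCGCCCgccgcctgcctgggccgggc
IGFBP5 (chr2:216695500-216695799, minus strand): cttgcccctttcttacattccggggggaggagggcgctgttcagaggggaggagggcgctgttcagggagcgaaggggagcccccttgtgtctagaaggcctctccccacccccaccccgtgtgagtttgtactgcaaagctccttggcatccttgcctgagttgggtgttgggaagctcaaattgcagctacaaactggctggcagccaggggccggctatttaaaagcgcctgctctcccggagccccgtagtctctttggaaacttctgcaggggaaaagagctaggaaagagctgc

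IGFBP3 and IGFBP4 hold overlapping or single TATA-box matches whose first bases lie at -32 and -30 (IGFBP3) and at -29 (IGFBP4) from the start, a motif found in 6681 of 35116 promoter windows of the same length. Each also holds GC-box matches, at -98 and -6 in IGFBP3 and at -83 and 24 in IGFBP4, and 45.0% of all windows hold that motif. The IGFBP5 window has no match to either motif as written. It does hold the similar letters tatttaaaa before the start, which TATANA does not cover. An AP-1 site (TGANTCA, both strands, in 7.71% of all windows) was matched in none of the windows of the 7 genes. These matches describe letters in the windows only.

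IGF2, the fetal growth ligand, was higher in 4OHT siNT than in DMSO siNT and higher again in 4OHT siSMARCA4. Its level in the DMSO siNT libraries was 28.2 CPM (2-1V), 27.5 (2-2V), 34.9 (2-2VM), 31.4 (4-2VM) and 30.4 (4-3VM). In 4OHT siNT it ran from 63.8 to 105 CPM with a median of 74.0, and in 4OHT siSMARCA4 from 117 to 446 CPM with a median of 240.5. No library of one group fell in the range of another, and the spread was widest after knockdown. IGF2 was 2.57-fold higher in 4OHT siNT than in DMSO siNT (log2 1.36, SE 0.28, edgeR adjusted p = 0.000473). It was a further 3.39-fold higher in 4OHT siSMARCA4 than in 4OHT siNT (log2 1.76, SE 0.27, edgeR adjusted p = 0.000186), a step that moved with the siRNA number, from 2.53 with number 2 to 0.77 with number 4. These values are set against 4OHT siNT libraries of the same number. There IGF2 read 63.8 to 65.2 CPM with number 2 and 82.8 to 105 CPM with number 4. The number 4 value passed the test in the fit of siRNA numbers over all 17 libraries (edgeR adjusted p = 0.0245) and missed it with number 4 libraries fitted alone (0.82, edgeR adjusted p = 0.0574). The difference between 4OHT siSMARCA4 and DMSO siNT was 8.70-fold (log2 3.12, SE 0.31, edgeR adjusted p = 6.13e-08).

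Other transcripts share the IGF2 locus. INS-IGF2, a read-through gene on the same strand whose counts cannot be separated with certainty from those of IGF2, stood at 8.35% to 13.4% of the IGF2 count in each library and rose in both steps, by 1.34 and 1.86 on the log2 scale (edgeR adjusted p = 0.000513 and 9.04e-05). When INS-IGF2 and the overlapping rows ENSG00000284779 and ENSG00000240801 of the same strand were added to IGF2, leaving out the microRNA gene MIR483, the folds were 2.52 and 3.39. IGF2-AS, transcribed from the other strand, was rare, with 9, 52 and 252 counts over DMSO siNT, 4OHT siNT and 4OHT siSMARCA4, or means of 0.0327, 0.177 and 0.806 CPM. It passed the filter only through 4OHT siSMARCA4, where it was highest, so its fitted differences are not given as support. Counting was strand-specific, so reads assigned to the other strand were counted apart from IGF2. IGF2-AS stood at 0% to 0.372% of the IGF2 count in each library. Whether so few reads include IGF2 reads assigned to the wrong strand was not tested.

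IGF1, the ligand made in many mesenchymal cells under growth hormone, was close to the limit of detection. Its counts summed to 77 in DMSO siNT, 11 in 4OHT siNT and 2 in 4OHT siSMARCA4, and a count of 0, which allows up to 0.0439 to 0.0785 CPM per library, was found in 3 of 6 4OHT siNT libraries and 4 of 6 4OHT siSMARCA4 libraries. The DMSO siNT libraries stood at 0.0968 to 0.503 CPM. They were above every 4OHT siSMARCA4 library and overlapped 4OHT siNT through library 2-3VM at 0.157 CPM. By summed counts IGF1 was 7.60-fold higher in DMSO siNT than in 4OHT siNT (95% exact interval 4.02 to 15.8). Of the 11 counts 6 came from library 2-3VM, and without it, an alternative chosen after seeing the data, the ratio was 14.6 (5.99 to 46.2). By exact permutation tests over libraries, two-sided and adjusted over the 3 comparisons, the difference had p = 0.00974. The 2 counts left in 4OHT siSMARCA4, 1 each in 2-1VM and 2-3VM, gave a ratio of 45.2 to DMSO siNT (12.1 to 380, exact permutation adjusted p = 0.00649), whereas 4OHT siSMARCA4 and 4OHT siNT did not differ detectably at this depth (exact permutation p = 0.227).

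IGF1R, the receptor, was lower under 4OHT with either siRNA. Its DMSO siNT libraries read 45.4 CPM (2-1V), 50.01 (2-2V), 52.7 (2-2VM), 43.1 (4-2VM) and 27.3 (4-3VM), against 21.0 to 27.0 in 4OHT siNT (median 24.7) and 16.99 to 25.2 in 4OHT siSMARCA4 (median 20.8). Library 4-3VM was the lowest of its group and lay just above the highest 4OHT siNT value. IGF1R fell by 0.86 on the log2 scale in 4OHT siNT (edgeR adjusted p = 2.77e-05, SE 0.14), and it was -1.05 in 4OHT siSMARCA4 against DMSO siNT (edgeR adjusted p = 2.53e-06). Between the 4OHT groups the difference was -0.19 (SE 0.13, edgeR adjusted p = 0.323). In the libraries of siRNA number 4 alone, which include 4-3VM, the difference between 4OHT siNT and DMSO siNT was -0.49 (edgeR adjusted p = 0.0549).

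Among the binding proteins, IGFBP3 and IGFBP6 were the members that fell with 4OHT. IGFBP3, the main carrier of IGFs in the circulation, lay between 57.7 and 124 CPM in DMSO siNT, between 18.9 and 30.3 CPM in 4OHT siNT and between 21.1 and 46.5 CPM in 4OHT siSMARCA4. All DMSO siNT libraries were above all 4OHT libraries, whereas the 4OHT groups overlapped. IGFBP3 fell by 1.82 on the log2 scale in 4OHT siNT (edgeR adjusted p = 7.76e-07, SE 0.21) and its difference after knockdown was 0.43 (SE 0.20, edgeR adjusted p = 0.132), or 1.06 with siRNA number 4 alone (edgeR adjusted p = 0.00537). IGFBP6, which prefers IGF2 over IGF1, read 63.5 to 102.9 CPM in DMSO siNT, 29.8 to 37.6 CPM in 4OHT siNT and 14.8 to 32.0 CPM in 4OHT siSMARCA4. It was lower at each step, with a slight overlap between the 4OHT groups, falling by 1.24 (SE 0.15, edgeR adjusted p = 8.53e-07) and then by 0.59 on the log2 scale (edgeR adjusted p = 0.00552, SE 0.14). The second step was -0.37 in the libraries of siRNA number 2 alone (edgeR adjusted p = 0.109) and -0.57 with the siSMARCA4 V libraries alone (edgeR adjusted p = 0.0812). Here and below, knockdown fits with the siSMARCA4 V libraries alone set them against 4OHT siNT libraries that are all VM. Suffix and knockdown cannot be told apart in such fits. Fits with a single siRNA number hold V and VM libraries after knockdown and only VM libraries in 4OHT siNT, so suffix and knockdown are mixed in part there too.

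Over all libraries, IGFBP2, IGFBP5 and IGFBP7 did not pass the test in 4OHT siNT against DMSO siNT and fell on knockdown. IGFBP2, which also binds integrins, read 109 to 184 CPM in DMSO siNT, 87.9 to 141 CPM in 4OHT siNT and 27.7 to 65.0 CPM in 4OHT siSMARCA4. The siSMARCA4 libraries were all below those of the other groups, which overlapped each other. IGFBP2 fell by 1.37 on the log2 scale on knockdown (edgeR adjusted p = 0.000103, SE 0.20), after a difference of -0.28 with 4OHT (SE 0.20, edgeR adjusted p = 0.255), and it kept the knockdown call in all 23 alternative analyses. The 4OHT difference passed the test with siRNA number 4 alone (-0.59, edgeR adjusted p = 0.0351).

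IGFBP5, which binds extracellular matrix as well as IGFs, read 3323 CPM (2-1V), 2825 (2-2V), 3849 (2-2VM), 2349 (4-2VM) and 1544 (4-3VM) in DMSO siNT, and 3816 to 5898 CPM (median 4664) in 4OHT siNT. In 4OHT siSMARCA4 the VM libraries stood at 850 (2-1VM), 791 (2-3VM) and 650 CPM (4-2VM), and the V libraries at 2226 (2-3V), 3670 (4-2V) and 2850 CPM (4-3V). All siSMARCA4 libraries were below all 4OHT siNT libraries, but V libraries lay in the DMSO siNT range and VM libraries far below it. IGFBP5 fell by 1.34 on the log2 scale on knockdown (edgeR adjusted p = 0.0119, SE 0.36). The size of that difference moved with the suffix: it was -2.59 within VM libraries (edgeR adjusted p = 1.17e-05), -2.21 with the suffix as a covariate (edgeR adjusted p = 0.000153), and -0.67 with the siSMARCA4 V libraries only (edgeR adjusted p = 0.0957). With siRNA number 4 alone it was -1.10 (edgeR adjusted p = 0.177). In that fit the siSMARCA4 libraries were 4-2V, 4-3V and 4-2VM, and the 4OHT siNT libraries were all VM. With 4OHT, IGFBP5 differed by 0.74 (SE 0.38, edgeR adjusted p = 0.105). Within VM libraries that difference was 0.83 (edgeR adjusted p = 0.0066). It was 1.16 with the suffix as a covariate (edgeR adjusted p = 0.00217) and 0.75 with DMSO siNT and 4OHT siNT fitted alone (edgeR adjusted p = 0.0060). The covariate takes a single suffix difference for all groups, and no 4OHT siNT library is V. For IGFBP5, V minus VM was 0.25 in DMSO siNT and 1.93 in 4OHT siSMARCA4 on the log2 scale. The covariate values thus depend on pooling unlike differences. The DMSO siNT value also mixes suffix with siRNA number, since its V libraries all carry number 2. Among its number 2 libraries IGFBP5 was lower in V (3323 and 2825 CPM) than in VM (3849 CPM). In 4OHT siSMARCA4 against DMSO siNT the difference was -0.60 (edgeR adjusted p = 0.188), and it passed the test without library 4-2V of 4OHT siSMARCA4 (-0.91, edgeR adjusted p = 0.0342), within VM libraries (-1.76, edgeR adjusted p = 7.31e-05), with the suffix as a covariate (-1.04, edgeR adjusted p = 0.00493) and with siRNA number 2 alone (-1.37, edgeR adjusted p = 0.00577). With siRNA number 4 alone it was 0.28 (edgeR adjusted p = 0.702), and with the siSMARCA4 V libraries only it was 0.08 (edgeR adjusted p = 0.81).

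IGFBP7, a secreted protein linked to oncogene-induced arrest, read 265 CPM (2-1V), 321 (2-2V), 864 (2-2VM), 388 (4-2VM) and 552 (4-3VM) in DMSO siNT, and 296 to 447 CPM in 4OHT siNT. In 4OHT siSMARCA4 the V libraries stood at 334 (2-3V), 238 (4-2V) and 203 CPM (4-3V) and the VM libraries at 142 (2-1VM), 154 (2-3VM) and 146 CPM (4-2VM). VM exceeded V in DMSO siNT and fell below V in 4OHT siSMARCA4. IGFBP7 fell by 0.86 on the log2 scale on knockdown (edgeR adjusted p = 0.0212, SE 0.26). The call was lost, at adjusted p up to 0.0524, when 2-1VM, 2-3VM or 4-2VM of 4OHT siSMARCA4 was left out, and with the suffix as a covariate (-0.87, edgeR adjusted p = 0.0562). That covariate takes a single suffix difference for all groups, whereas the V and VM levels went opposite ways in DMSO siNT and 4OHT siSMARCA4. The knockdown call was lost too with siRNA number 2 alone (-0.94), number 4 alone (-0.68) or the siSMARCA4 V libraries alone (-0.50). Within VM libraries IGFBP7 was lower at both steps, by -0.73 with 4OHT (edgeR adjusted p = 0.00592) and -1.30 on knockdown (edgeR adjusted p = 0.000578), beside -0.38 with 4OHT over all libraries (edgeR adjusted p = 0.243). The 4OHT difference also passed the test with siRNA number 4 alone (-0.60, edgeR adjusted p = 0.0385).

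IGFBP1, best known from liver and decidua, was rare, and its level stepped up between the groups. It had 6 counts over DMSO siNT, 87 over 4OHT siNT and 265 over 4OHT siSMARCA4, or 0 to 0.0597, 0.0947 to 0.400 and 0.454 to 1.33 CPM per library. The 3 groups did not overlap. By summed counts it was 13.4-fold higher in 4OHT siNT than in DMSO siNT (95% exact interval 5.90 to 37.4), and 2.81-fold higher again in 4OHT siSMARCA4 (2.1998 to 3.63). The gene was tested by edgeR only because of its level in the 4OHT groups, so the adjusted p-values of 4.99e-05 and 0.00672 describe the fit and support nothing further. With DMSO siNT and 4OHT siNT fitted alone it did not pass the filter. The knockdown call was lost with siRNA number 4 alone (log2 1.79, edgeR adjusted p = 0.106) and with the siSMARCA4 V libraries alone (log2 1.20, edgeR adjusted p = 0.127).

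IGFBP4, an inhibitor of IGF action, read 1417 to 1946 CPM in DMSO siNT, 1496 to 1733 CPM in 4OHT siNT and 1110 to 1790 CPM in 4OHT siSMARCA4. The groups overlapped throughout. Its differences were 0.03 with 4OHT (SE 0.10, edgeR adjusted p = 0.847) and -0.13 on knockdown (SE 0.10, edgeR adjusted p = 0.374). Ranges of the groups were apart for 5 of the 9 tested genes in 4OHT siNT against DMSO siNT, beside 39.6% of all genes. They were apart for 4 of 9 in 4OHT siSMARCA4 against 4OHT siNT, beside 12.0%, and for 6 of 9 in 4OHT siSMARCA4 against DMSO siNT, beside 36.3%. Without IGFBP1 these counts are 4, 3 and 5 of 8.

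**Figure D2:**
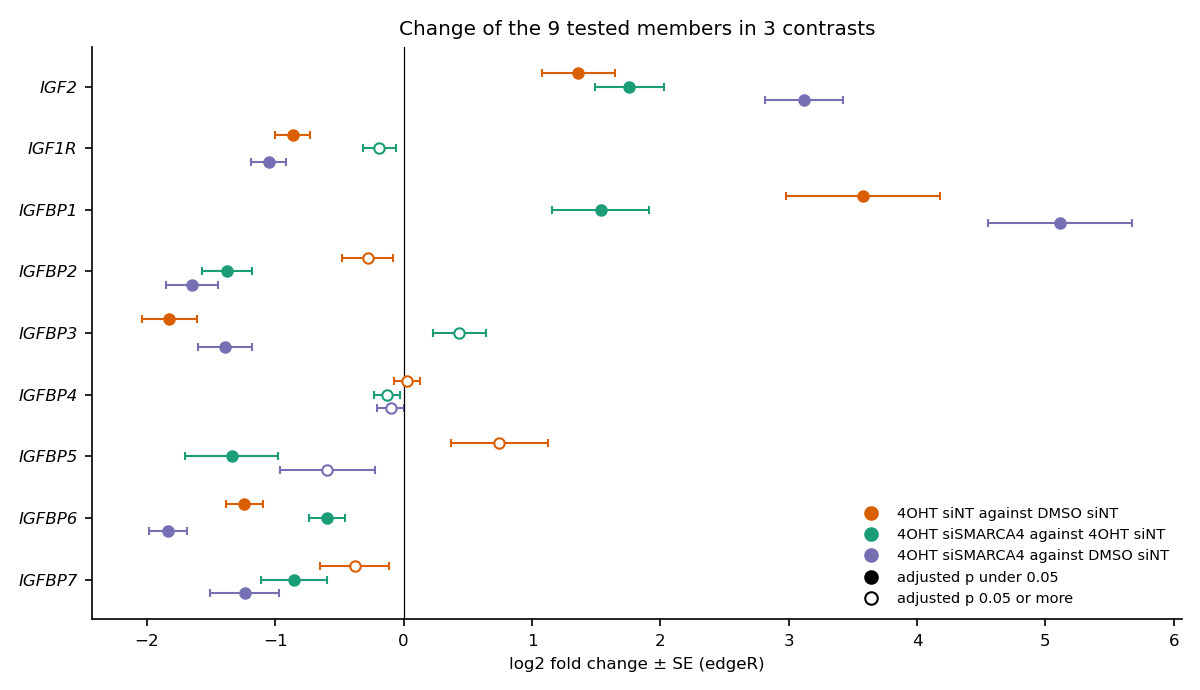
Log2 fold changes (horizontal axis, with SE as bars) of the 9 tested genes (vertical axis) in the 3 comparisons, with filled symbols for an edgeR adjusted p below 0.05. IGF2 and IGFBP1 lie to the right of 0 in all 3 comparisons, IGFBP4 stays near 0, and IGFBP5 has the longest bars among the binding proteins apart from IGFBP1.

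Levels of different genes were compared as CPM per kb of merged exons. In DMSO siNT IGFBP4 led at 722 CPM per kb, followed by IGFBP5 (430) and IGFBP7 (248), then IGFBP6 (59.3), IGFBP2 (28.5) and IGFBP3 (19.3), then IGF2 (4.27) and IGF1R (3.13), with IGF1 (0.0338) and IGFBP1 (0.0136) last. Ranges over libraries overlapped between IGFBP5 and IGFBP7, between IGFBP2 and IGFBP3, and between IGF1 and IGFBP1, and every other pair of neighbours was apart. In 4OHT siNT IGFBP4 (735.5) and IGFBP5 (720) overlapped at the top, IGFBP6 and IGFBP2 overlapped too, and IGF2 (10.96) had passed IGFBP3 (5.45). In 4OHT siSMARCA4 IGFBP4 stood at 673 CPM per kb and IGFBP5 at 284, IGF2 (37.1) overlapped IGFBP6 (16.6) in range, and IGF1R (1.51) stayed above IGFBP1 (0.510). Ranges also overlapped there between IGFBP4 and IGFBP5, IGFBP5 and IGFBP7, IGFBP6 and IGFBP2, and IGFBP2 and IGFBP3. With the longest transcript as gene length, 8 of 10 members kept their rank in each group.

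The 7 binding proteins summed to 1506 ± 197 CPM per kb in DMSO siNT (SD, n = 5), 1700 ± 110 in 4OHT siNT (n = 6) and 1096 ± 235 in 4OHT siSMARCA4 (n = 6). IGFBP4, IGFBP5 and IGFBP7 made up most of that sum in each group. IGFBP4 took 48.4% in DMSO siNT, 43.3% in 4OHT siNT and 63.2% in 4OHT siSMARCA4. IGFBP5 took 28.5%, 42.2% and 24.3% in the same order, with a range of 11.4% to 41.0% over the siSMARCA4 libraries. IGFBP7 took 15.9%, 11.2% and 9.39%. The IGFBP4 share split by suffix in 4OHT siSMARCA4, at 74.0% to 76.4% in VM libraries and 46.9% to 59.1% in V libraries. In DMSO siNT it ran from 37.0% to 57.5% over libraries. These shares depend on one another, since they add up to the whole.

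**Figure D3:**
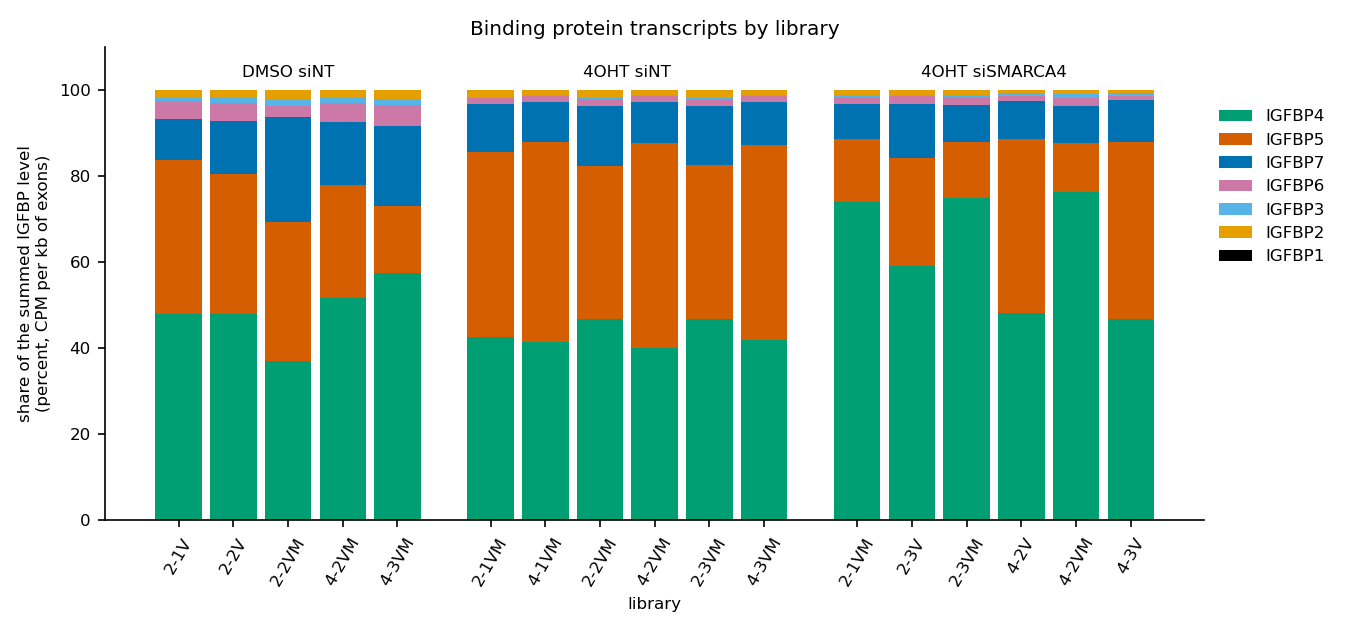
Stacked bars give, for each of the 17 libraries on the horizontal axis, the share in percent of summed IGFBP CPM per kb (vertical axis) held by each binding protein. IGFBP4 and IGFBP5 together fill most of each bar, and within 4OHT siSMARCA4 the IGFBP5 segment is narrower in VM libraries than in V libraries.

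The suffix was then compared within groups. In 4OHT siSMARCA4, V and VM libraries (n = 3 each) differed in 3.70% of all genes tested and in 2 members of the family: IGFBP5 was higher in V (mean 2914 against 764 CPM, log2 1.93, SE 0.27, edgeR adjusted p = 0.00167) and IGF2 was lower in V (169 against 361 CPM, log2 -1.10, SE 0.28, edgeR adjusted p = 0.0421). IGFBP7 stood at 258 CPM in V and 147 CPM in VM (edgeR adjusted p = 0.0726). In DMSO siNT (2 V and 3 VM libraries) no member passed the edgeR test, beside 0.765% of all genes, and 3 members had an unadjusted p under 0.05. Among them IGFBP7 stood at 293 CPM in V and 601 CPM in VM (edgeR adjusted p = 0.0956). The suffix groups were compared after the data had been seen. In DMSO siNT the V libraries all carry siRNA number 2 and the number 4 libraries are all VM. Suffix and number cannot be told apart fully in that group. Within 4OHT siSMARCA4, SMARCA4 was lower in the VM libraries, as given above, and the part of that difference in IGFBP5 and IGF2 was not tested. In DMSO siNT SMARCA4 stood at 180 CPM in V and 211 CPM in VM (edgeR adjusted p = 0.476).

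The siRNA number gave a second split. The sources used here do not say whether the siNT libraries numbered 2 and 4 received different siRNAs, and the interaction term sets siSMARCA4 against siNT libraries of the same number. On knockdown IGF2 differed by 2.53 on the log2 scale with number 2 and by 0.77 with number 4, a difference between the numbers of 1.76 (SE 0.31, interaction term, edgeR adjusted p = 0.0163), beside 1.06% of all genes with such a difference. IGF2 stood at 415 (2-1VM), 258 (2-3V) and 446 CPM (2-3VM) with number 2 and at 131 (4-2V), 223 (4-2VM) and 117 CPM (4-3V) with number 4. The number 2 libraries were above the number 4 libraries within each suffix, by 415 and 446 against 223 CPM in VM and 258 against 131 and 117 CPM in V. Number and suffix overlap in part, with 2 of 3 number 2 libraries tagged VM and 2 of 3 number 4 libraries tagged V. With the siSMARCA4 V libraries alone, set against 4OHT siNT libraries that are all VM, IGF2 was 1.11 higher on knockdown (edgeR adjusted p = 0.00544). IGFBP3 went the other way, at -0.24 with number 2 and 1.02 with number 4, a difference of -1.26 (edgeR adjusted p = 0.0492). Both interaction terms also hold the difference between numbers within 4OHT siNT. There IGF2 read 63.8 to 65.2 CPM with number 2 and 82.8 to 105 CPM with number 4 (log2 0.51 for number 4 minus number 2, edgeR adjusted p = 0.181). IGFBP3 read 27.3 to 30.3 and 18.9 to 23.6 CPM in the same order (log2 -0.44, edgeR adjusted p = 0.222). Within 4OHT siSMARCA4 itself, number 4 against number 2, 0.293% of all genes passed the test and among the members IGF2 did (log2 -1.25, SE 0.22, edgeR adjusted p = 0.0267). By edgeR no member passed the test within 4OHT siNT (4.68% of all genes, 3 members at an unadjusted p under 0.05) or within DMSO siNT (0.108%, 2 members at an unadjusted p under 0.05). For 4OHT against DMSO under siNT, no member differed between numbers by edgeR, beside 2.10% of all genes, and 1 member, IGF1R, had an unadjusted p under 0.05.

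**Figure D4:**
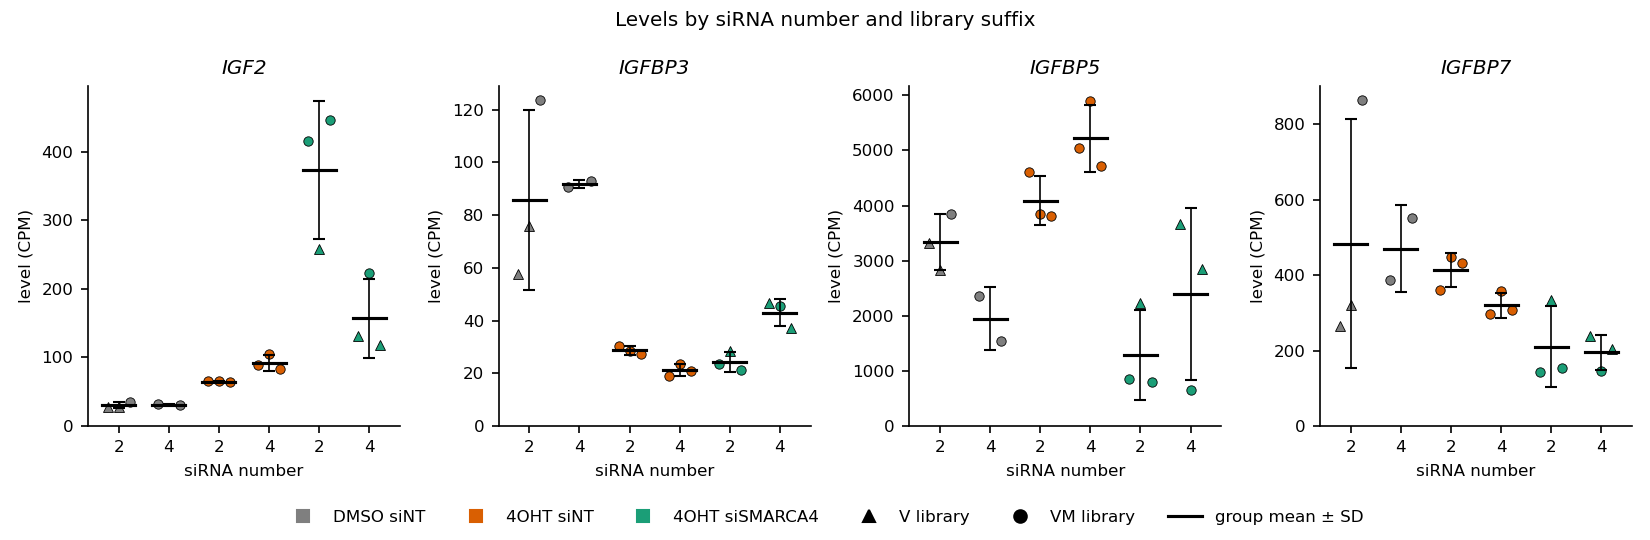
CPM (vertical axis) of IGF2, IGFBP3, IGFBP5 and IGFBP7 in each library, split by siRNA number 2 or 4 on the horizontal axis and coloured by group, with the suffix as marker and bars for mean ± SD of the 2 or 3 libraries. In 4OHT siSMARCA4 the number 2 libraries of IGF2 (258–446 CPM) lie above those of number 4 (117–223 CPM).

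Beyond the family, 61 further genes of IGF signalling were listed by role and 52 of them were tested. In 4OHT siNT against DMSO siNT 33 of the 52 passed the test (18 higher, 15 lower), beside 54.4% of all genes, and on knockdown 23 passed (9 higher, 14 lower), beside 24.2%. Their median differences were 0.08 and -0.12 on the log2 scale, beside 0.00 and -0.02 over all genes. Among receptors and adaptors, 8 of 9 tested genes changed with 4OHT, 5 higher and 3 lower, beside 54.4% of all genes. GRB14, an adaptor, had 21 counts over DMSO siNT and 56 over 4OHT siNT (0.0782 and 0.181 CPM) and reached the filter mainly through the 4OHT groups, so its call is a description. Without it 7 of 8 changed, 4 higher and 3 lower, and without PAPPA2 and IGF2-AS as well, which reached the filter in the same way, 30 of 49 genes of all lists did (15 higher, 15 lower), which was also counted after seeing the data. INSR, the insulin receptor, fell from 6.48 to 3.22 CPM (log2 -1.01, edgeR adjusted p = 2.91e-05) and rose to 5.11 CPM on knockdown (0.66, edgeR adjusted p = 0.00469). IGF2R, which clears IGF2 to lysosomes, rose from 291 to 555 CPM (0.93, edgeR adjusted p = 5.51e-05) and stood at 589 CPM after knockdown. The adaptors IRS1 (177 to 91.3 CPM) and IRS2 (39.5 to 17.8 CPM) fell with 4OHT by 0.96 and 1.15 on the log2 scale (edgeR adjusted p = 8.55e-07 and 1.03e-05). On knockdown IRS1 fell by a further 0.34, to 71.96 CPM (edgeR adjusted p = 0.0283), and IRS2 stood at 21.7 CPM (edgeR adjusted p = 0.21).

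The proteases that cut IGF-binding proteins, and their inhibitors, changed with 4OHT in 8 of 8 tested genes (5 higher, 3 lower), beside 54.4% of all genes, and on knockdown in 6 of 8 (3 higher, 3 lower), beside 24.2%. PAPPA, which cleaves IGFBP4 and IGFBP5, rose from 116 to 174 CPM with 4OHT (log2 0.59, edgeR adjusted p = 0.00124) and to 360 CPM on knockdown (1.04, edgeR adjusted p = 3.47e-05). STC1, a stanniocalcin that inhibits PAPPA, rose from 150 to 2940 CPM with 4OHT (4.30, edgeR adjusted p = 2.79e-14) and stood at 3327 CPM after knockdown (0.18, edgeR adjusted p = 0.252). STC2, the other stanniocalcin, fell from 431 to 313 CPM with 4OHT (-0.46, edgeR adjusted p = 0.0442) and stood at 302 CPM after knockdown. PAPPA2, a relative of PAPPA, averaged 0.115, 1.32 and 0.226 CPM, with 32, 396 and 75 counts over DMSO siNT, 4OHT siNT and 4OHT siSMARCA4. It was tested mainly through 4OHT siNT, where it was high, so its calls in both directions, and its part in the counts of this list, are a description. HTRA1, a secreted serine protease, fell in both steps, from 240 to 172 to 113 CPM (-0.48 and -0.60, edgeR adjusted p = 0.000351 and 0.00023).

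The counts in the lists that follow stand beside 54.4% of all genes called with 4OHT (27.0% higher, 27.4% lower) and 24.2% on knockdown (10.4% higher, 13.8% lower), and no list's share was tested against them. Secreted proteins with an IGFBP-like domain changed in 5 of 6 tested genes with 4OHT (1 higher, 4 lower) and in 4 of 6 on knockdown (1 higher, 3 lower). ESM1, an endothelial proteoglycan, was the one that rose, from 1.70 to 10.5 to 50.1 CPM (log2 2.62 and 2.26, edgeR adjusted p = 3.69e-07 and 1.32e-05). Those that fell with 4OHT were the matricellular proteins CCN1, CCN2 and CCN3 and KAZALD1, and CCN1, CCN3 and KAZALD1 fell again on knockdown. In the PI3K, AKT and FOXO list 4 of 12 genes changed on knockdown, all lower (PIK3R2, PDPK1, AKT1 and FOXO4), and of the 11 reported here with 4OHT, 3 changed (PIK3CB and PDPK1 higher, FOXO3 lower). Of 5 growth hormone axis genes, GHR, STAT5A and SOCS2 fell with 4OHT and GHR, the growth hormone receptor, fell again on knockdown. Among 7 cell-surface and nuclear partners of IGFBPs, 2 changed with 4OHT (ITGA5 higher, CAV1 lower) and 3 on knockdown (ITGB1 and CAV1 higher, LRP1 lower). Of the 5 tested genes at the IGF2 locus or binding its messenger, 3 were called higher with 4OHT (IGF2BP1, INS-IGF2 and the filter-dependent IGF2-AS) and 2 on knockdown (INS-IGF2 and IGF2-AS). Genes given here without values, to say which ones a count of 5 or fewer holds, were named after their values were seen. In 4OHT siSMARCA4 against DMSO siNT 35 of the 52 pathway genes passed the test (17 higher, 18 lower), beside 55.1% of all genes. The largest differences were fitted for ESM1 (4.88), IGF2-AS (4.52, tested only through 4OHT siSMARCA4) and STC1 (4.47).

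**Figure D5:**
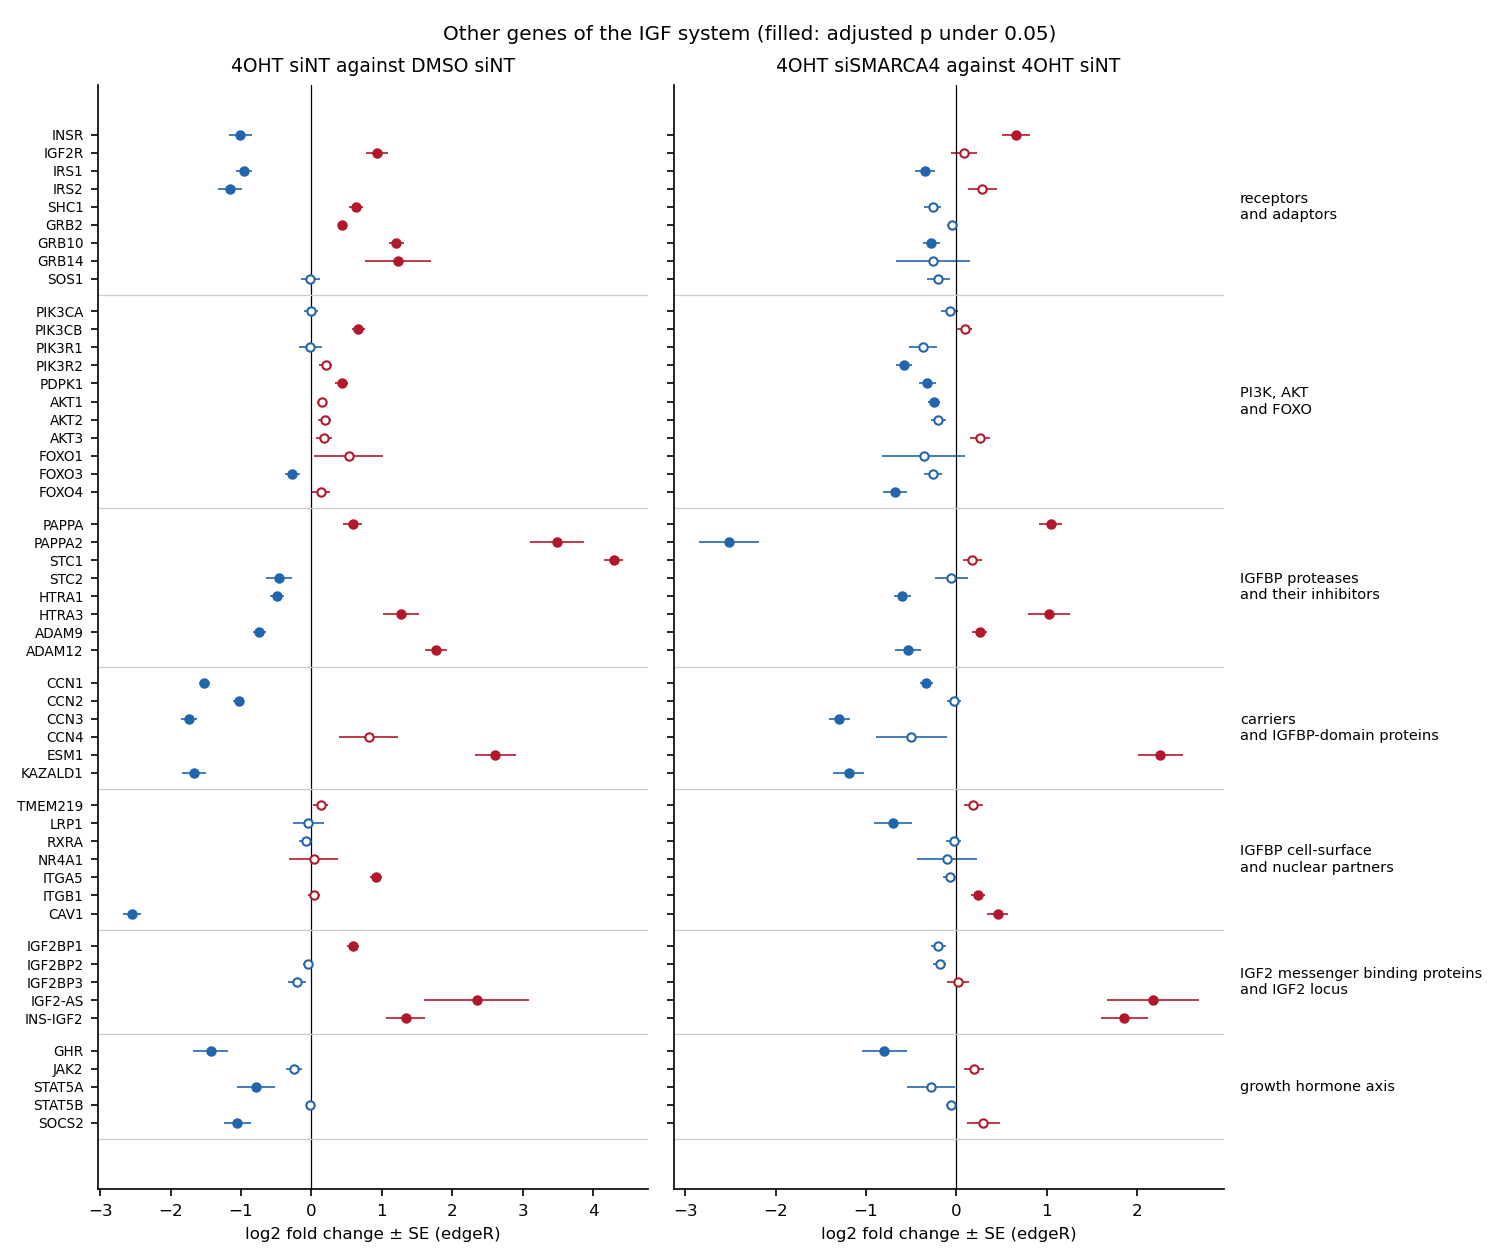
Log2 fold changes (horizontal axis, with SE as bars) of tested pathway genes, grouped by list on the vertical axis, for 4OHT siNT against DMSO siNT and for 4OHT siSMARCA4 against 4OHT siNT; filled symbols passed the test (edgeR adjusted p below 0.05). STC1 (4.30) is the gene farthest right with 4OHT, and PAPPA2, tested mainly through its level in 4OHT siNT, is the gene farthest left on knockdown.

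Genes with the most similar levels over the 17 libraries were listed for each member with a group mean of at least 10 CPM, by Pearson's r of log2 CPM. The libraries share the 3 groups, so these values mostly describe group differences. For IGF2 they were INS-IGF2, which shares its reads (r = 0.994), AHI1 (0.979) and AGPAT4 (0.971). IGF1R was nearest to DOP1B (0.981), DIP2C (0.980) and AFAP1 (0.977), and IGFBP6 to PRKAR1B (0.977), LMNA (0.976) and HAUS7 (0.974). The first gene was LRRC32 for IGFBP5 (0.963), RGMB for IGFBP3 (0.957), CADM4 for IGFBP2 (0.948), CHSY3 for IGFBP7 (0.941) and ETFB for IGFBP4 (0.919). The same measure was lowest for IGFBP4, whose groups overlapped.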

How the data were processed

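The authors trimmed reads with cutadapt 4.7, aligned them with HISAT2 2.2.1 to GRCh38 allowing many alignments per read, and deposited TElocal output: estimated counts, written as whole numbers, for 62754 genes and individual repeats, not normalised, in 1 table per library. Reads that fit several places were shared out, so counts of overlapping or near-identical genes are uncertain. The methods name Ensembl 100, yet the tables hold all 62700 gene IDs of GENCODE 44, which was used here for symbols (16406 of the 19473 tested genes), positions and exon lengths. The members and all lists were chosen with earlier results of these data known.

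Groups were taken from the labels. Counts were used as deposited. Genes were kept by filterByExpr (minimum count 10, minimum total 15), scaled by TMM (factors 0.949 to 1.08) together with 1026 repeat subfamilies, and fitted over all 17 libraries by edgeR 4.0.16 (quasi-likelihood test, R 4.3.3). P-values were adjusted by Benjamini-Hochberg over 19473 genes, with a threshold of 0.05. The siRNA number was fitted as an interaction by the same test over all 17 libraries. On simulated data made for 4OHT siSMARCA4 against 4OHT siNT (19136 genes), the test recovered 81% of 2-fold and 53% of 1.5-fold changes. For each fold 100 genes were changed, all drawn from those with a mean above 1 CPM, and the others were left unchanged. These rates therefore do not cover rare genes such as IGFBP1, or data in which many genes change. CPM were computed with the TMM-scaled totals, and SE as the log2 fold change over the square root of F. IGF1 was tested by exact permutation, and ratios of summed counts have exact Poisson intervals. Depth was 39109479 to 68978119 counts per library, and the closest pair of libraries still differed by 5.05 times the counting variance, so none was taken for a copy of another; this does not show that libraries with the same numbers and different suffixes came from separate cultures. Alternatives were DESeq2 1.42.0, its size factors, no filter, gene rows alone, the compared groups alone, a suffix covariate, subsets by suffix or siRNA number, a replicate block and leaving out each library. Named genes were the 10 members; from the lists, the 3 called genes of largest change in each comparison and INSR, IGF2R, IRS1, IRS2, PAPPA, STC1, STC2, HTRA1 and INS-IGF2; and, for each tested member with a group mean of 10 CPM or more, the 3 genes of highest Pearson's r in log2 CPM (prior count 2). Promoter windows came from RefSeq (GRCh38.p14). The result of 1 listed gene with 4OHT is not reported here.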

Additional observations from a re-analysis of the deposited data

Results flagged for a closer look

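The knockdown difference of IGF2 depended on the siRNA number, by 1.76 on the log2 scale between numbers 2 and 4 (edgeR interaction, adjusted p = 0.0163). This call held in 7 of 12 analyses that each left out 1 library, with differences of 1.59 to 2.10. It was lost without 4OHT siNT library 4-1VM, 2-2VM, 4-2VM or 2-3VM or 4OHT siSMARCA4 library 2-3VM, at edgeR adjusted p of 0.0532 to 0.0718. IGFBP3 differed between the numbers by -1.26 (edgeR adjusted p = 0.0492), and that call held in 1 of 12 such analyses, the one without 4OHT siSMARCA4 library 4-2VM, with differences of -1.39 to -1.17 over the 12. The differences of IGF2 and IGFBP3 between numbers also hold the difference between numbers within 4OHT siNT. The siRNA number and the library suffix overlap in part, and their contributions cannot be told apart fully in 6 libraries.

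In IGF1, the 4OHT siNT library 2-3VM stood at 0.157 CPM and the next highest of its group at 0.0568 CPM, a gap of 0.638 of the group's range. This was 1 such value among 30 groups examined with Dixon's test, where chance gives about 1 in 20.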

How the results depend on the processing

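No member changed sign with a call under any alternative. Among the alternative fold changes of single members, 15 lost a call, 11 gained one and the rest kept their side of the threshold. With siRNA number 4 alone, 4OHT siSMARCA4 against 4OHT siNT gave 3 members, 9 pathway genes and 1198 genes past the threshold, and with the siSMARCA4 V libraries alone 2 members, 12 pathway genes and 1559 genes, against 6, 23 and 4703 in the full comparison. Both use fewer libraries and set V knockdown libraries against 4OHT siNT libraries that are all VM. The first also holds the VM knockdown library 4-2VM. Leaving out 1 library at a time gave 5 to 6, 5 to 6 and 7 to 8 members for the 3 comparisons. It gave 0 to 1 members whose 4OHT difference depended on the siRNA number (0 with all libraries) and 0 to 2 for knockdown (2 with all). With the longest transcript as gene length, IGFBP7 took 14.3% of the summed binding proteins in 4OHT siNT and 12.1% in 4OHT siSMARCA4. DESeq2 gave 5, 6 and 7 members and 10728, 5194 and 10860 genes. Without the filter, IGF1 was also tested by edgeR and was lower by -2.81 with 4OHT (adjusted p = 0.00108).

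Whether replicate numbers pair the libraries was not settled. Deviations of libraries with the same number in different groups had a median correlation of 0.0493, with 14 of 32 pairs over 0.1. For different numbers the median was -0.030, with 19 of 64 pairs over 0.1. With a replicate block, 5, 6 and 7 members and 10520, 4243 and 10315 genes passed. At these depths IGF1 and IGFBP1 remain limited by counting error.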
